A study of Homo sapiens with 12 samples.

Results

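The 7 genes described here encode enzymes of the mevalonate pathway, from the joining of acetyl-CoA by ACAT2 through HMGCS1, MVK, PMVK, MVD and IDI1 to farnesyl diphosphate, made by FDPS. They were chosen by name, for their place in the pathway, from the 20098 protein-coding genes of chromosomes 1 to 22 and X. ChIP-seq was done in HCC70, an established line of triple-negative breast cancer (TNBC), treated for 24 h with vehicle or with the RORγ antagonist XY018, a small molecule given at 5 µM according to the labels. Chromatin was immunoprecipitated for the transcription factor SREBP2, for the nuclear receptor RORγ and for H3K27ac, an acetylated histone mark of active promoters and enhancers, with 1 library for each antibody and treatment. A promoter region was a peak (a region with more fragments than the local background) that overlapped the 1000 bp before or the 100 bp after any annotated transcript start of the gene. The lists held 44 SREBP2, 39 RORγ and 59 H3K27ac regions within 10 kb of the 7 genes with vehicle, and 32, 34 and 54 regions with XY018.

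The mevalonate pathway turns acetyl-CoA into isopentenyl and farnesyl diphosphate, the isoprenoid units from which cells build cholesterol, ubiquinone, dolichol and the lipid anchors of small GTPases. Its genes are textbook targets of SREBP2, which is released from cellular membranes when sterols run low and binds sterol regulatory elements (SREs) near gene starts, usually beside NF-Y at CCAAT boxes and Sp1 at GC boxes. RORγ is a nuclear receptor that binds DNA at a hexamer of the AGGTCA type with an A/T-rich flank.

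With 1 library per group, no difference between vehicle and XY018 has a replicate check and no p-value was computed. The 6 libraries held between 3.65 and 6.16 tags per kb, estimated from the background of each list, and the values below are the whole fragments at a region's summit that the deposited fold and −log10 p imply. Intervals are exact 95% intervals of these numbers and cover counting error only. H3K27ac promoter regions were found in both treatments at 4 of 5 basal markers (not KRT14), at 3 of 4 luminal markers (ESR1, FOXA1 and GATA3, not PGR) and at neither of the 2 leukocyte markers, PTPRC and CD3E. As 66.8% of all genes had such a region with vehicle and 68% with XY018, these counts do not tell a basal from a luminal line.

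Sequence upstream of the starts is shown for the members whose promoter stretch lies outside annotated untranslated exons, because the motif content of these promoters and the position of the SREBP2 and RORγ summits are compared below. All positions are on hg19 (GRCh37), each stretch is written 5′ to 3′ on the strand of the gene, and distances are from the start of the MANE Select transcript, the reference transcript of each gene. Capitals mark the SRE (TCACNCCAC) and CCAAT boxes (CCAAT or its complement ATTGG) at HMGCS1, CCAAT boxes at MVK, IDI1 and FDPS, a GC box (GGGCGG or its complement) at PMVK, and both kinds of box at MVD.
HMGCS1, chr5:43313615-43313814: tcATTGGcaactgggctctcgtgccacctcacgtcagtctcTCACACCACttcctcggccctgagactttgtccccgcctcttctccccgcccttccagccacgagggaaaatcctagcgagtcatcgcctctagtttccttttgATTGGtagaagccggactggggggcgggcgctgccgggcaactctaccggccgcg
MVK, chr12:110011387-110011586: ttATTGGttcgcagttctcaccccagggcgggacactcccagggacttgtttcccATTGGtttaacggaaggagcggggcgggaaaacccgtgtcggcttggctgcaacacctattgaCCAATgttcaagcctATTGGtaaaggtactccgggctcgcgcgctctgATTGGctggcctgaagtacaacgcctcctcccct
PMVK, chr1:154909196-154909395: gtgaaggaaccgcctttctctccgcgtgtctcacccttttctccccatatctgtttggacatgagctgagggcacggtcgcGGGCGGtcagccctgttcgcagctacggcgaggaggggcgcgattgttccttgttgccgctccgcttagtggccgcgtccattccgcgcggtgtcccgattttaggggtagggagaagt
MVD, chr16:88729570-88729705: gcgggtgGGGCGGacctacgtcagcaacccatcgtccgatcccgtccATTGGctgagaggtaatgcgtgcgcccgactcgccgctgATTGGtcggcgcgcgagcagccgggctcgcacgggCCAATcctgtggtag
IDI1, chr10:1095060-1095359: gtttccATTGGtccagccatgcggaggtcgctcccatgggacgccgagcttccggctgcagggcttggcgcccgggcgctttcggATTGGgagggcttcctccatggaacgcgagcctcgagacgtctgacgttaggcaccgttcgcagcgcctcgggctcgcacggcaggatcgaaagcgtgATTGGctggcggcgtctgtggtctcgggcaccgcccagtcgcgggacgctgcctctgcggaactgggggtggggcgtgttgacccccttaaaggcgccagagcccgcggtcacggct
FDPS, chr1:155278339-155278538: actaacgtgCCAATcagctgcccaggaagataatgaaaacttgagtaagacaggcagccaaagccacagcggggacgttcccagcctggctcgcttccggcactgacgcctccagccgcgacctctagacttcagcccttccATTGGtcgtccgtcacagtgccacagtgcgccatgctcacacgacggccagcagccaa

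At least 3 CCAAT boxes stood in the 300 bp before the MANE Select start of 5 of the 7 genes, HMGCS1, MVK, MVD, IDI1 and FDPS, a count made after the sequences had been seen. Over 18878 protein-coding MANE Select starts, 4.48% had as many. MVK had 5 boxes in that stretch, a number reached by 0.599% of starts, and ACAT2 and PMVK had 0. A GC box was found in the promoter window of all 7 genes, and in that of 73.3% of starts. The SRE, by contrast, was found in the window of HMGCS1 alone, 255 bp upstream of the start, and 6.1% of starts had such a match. The E-box CACGTG, which SREBP proteins can also bind, was found only in the window of MVK among the 7, 597 bp upstream, and in 19.7% of all windows. No match says only that these letters are absent from the window searched.

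SREBP2 promoter regions were found at 5 of the 7 genes with vehicle and at the same 5 genes with XY018: ACAT2, HMGCS1, MVK, MVD and IDI1. The background was high, since 70.6% of protein-coding genes had such a region with vehicle and 62.7% with XY018, and 12.5% of those with a vehicle region lacked one with XY018. PMVK and FDPS had no SREBP2 promoter region in either treatment. Among the 5 genes, MVD and IDI1 had many fragments and ACAT2, HMGCS1 and MVK had few. All 5 had fewer fragments with XY018 after scaling, as had 98% of promoters, and none was at least 1.5 times higher (0.0567% of promoters). The ratio of their summed fragments was 0.623 (interval 0.488 to 0.794), a value weighted towards MVD and IDI1. The median of the 5 ratios was 0.597, beside a median of 0.621 over the 12337 promoters with overlapping regions in both treatments. Without MVD, an alternative chosen after seeing the data, the summed ratio was 0.531.

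**Figure D1:**
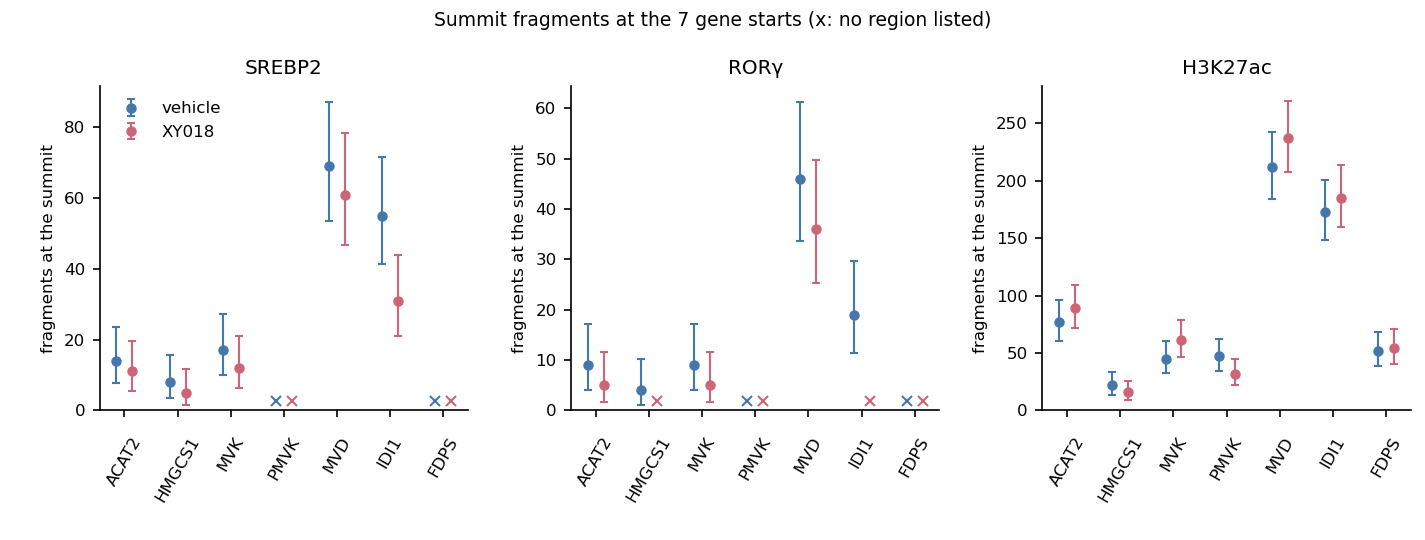
Fragments at the summit of the strongest region that overlaps the 1000 bp upstream to 500 bp downstream of the MANE Select start (y axis) of each gene (x axis), for SREBP2, RORγ and H3K27ac. Points are single libraries, vehicle in blue and XY018 in red, bars are exact Poisson 95% intervals and crosses mark genes with no region listed. MVD stands highest in all 3 panels and IDI1 next to it, except that IDI1 has no RORγ region with XY018, and PMVK and FDPS have H3K27ac but neither factor.

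ACAT2 (hg19, chr6:160183077-160200144, plus strand) encodes the cytosolic thiolase that joins acetyl-CoA molecules into acetoacetyl-CoA. Its SREBP2 summit held 14 fragments with vehicle, 122 bp upstream of the start, and 11 with XY018, 146 bp upstream. The vehicle level was higher than at 12.9% of genes with an SREBP2 promoter region, so the region was weak. The scaled ratio of 0.665 had an interval of 0.273 to 1.58, so that no difference could be detected with so few fragments. The vehicle summit lay in an untranslated exon of the neighbouring gene SOD2, and only a site of 30 bases is shown, chr6:160182931-160182960, which carries 2 overlapping GC boxes in capitals, the nearest of them 14 bp from that summit.
ACAT2 site: cctCCGCCCGCCCctgctccggccttgcgc

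HMGCS1 (chr5:43287572-43313614, minus strand) encodes HMG-CoA synthase, which adds a further acetyl unit. It had the weakest SREBP2 region of the 5, with 8 fragments 54 bp upstream of the start with vehicle and 5 fragments 126 bp downstream with XY018. Of genes with a vehicle SREBP2 region, 3.24% had fewer fragments. The ratio was 0.529 (interval 0.136 to 1.83). With XY018 the region was listed at a −log10 q of 0.738, so a q threshold of 0.01 removes it. The SRE shown above lay 82 bp beyond the edge of the vehicle region and 201 bp from its summit, whereas a CCAAT box stood 44 bp from the summit.

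MVK (chr12:110011060-110035930, plus strand) encodes mevalonate kinase. Its main SREBP2 region, whose summit lay in the untranslated first exon 62 bp downstream of the start, held 17 fragments with vehicle and 12 with XY018. The ratio was 0.597 (interval 0.260 to 1.33). The local background of that summit was 1.03 fragments with vehicle and 3.15 with XY018, so the deposited fold was 8.88 and 3.13, a ratio of 0.353. A smaller upstream region of 7 fragments, 350 bp upstream of the start, was listed with vehicle only. Both vehicle regions overlapped the promoter window of MMAB, the neighbouring gene transcribed in the opposite direction, so they cannot be assigned to MVK alone. A further region, 7659 bp downstream of the start at an internal transcript start, held 12 and 10 fragments.

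MVD (chr16:88718343-88729569, minus strand) encodes the decarboxylase that makes isopentenyl diphosphate. It had the highest SREBP2 summit of the 7 genes, 69 fragments with vehicle and 61 with XY018, more than 97.0% and 98.3% of genes with a promoter region. The ratio of 0.748 (interval 0.521 to 1.07) was the highest of the 5 members. With vehicle the summit lay 606 bp upstream of the start, inside a wide region of 1926 bp. With XY018 that stretch was listed as 2 regions, with summits 629 bp upstream (61 fragments) and 152 bp downstream (35 fragments). The stretch around the vehicle summit, chr16:88730040-88730189, had a GC content of 75.3% and 1 GC box, in capitals, 74 bp from the summit, but no SRE and no CCAAT box.
MVD summit: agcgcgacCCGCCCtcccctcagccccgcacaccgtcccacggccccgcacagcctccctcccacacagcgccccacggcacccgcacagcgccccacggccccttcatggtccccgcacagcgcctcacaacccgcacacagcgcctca

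IDI1 (chr10:1085092-1095059, minus strand) encodes the isomerase that turns isopentenyl into dimethylallyl diphosphate. Its SREBP2 summit held 55 fragments with vehicle, 374 bp downstream of the start in an untranslated exon, and 31 with XY018, 312 bp downstream. The scaled ratio of 0.477 (interval 0.297 to 0.754) was the lowest of the 5, and the only one among them whose interval excluded 1. The interval also held the median of all promoters, 0.621. From the deposited fold the IDI1 ratio was 0.657, over a local background of 2.19 fragments with vehicle and 1.78 with XY018. By that measure MVK (0.353) and HMGCS1 (0.611) were lower than IDI1. In rank among genes with such a region, IDI1 stood above 89.5% with vehicle and above 70.3% with XY018. The region overlapped a promoter window of the neighbouring gene WDR37 as well.

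PMVK (chr1:154897216-154909195, minus strand), which encodes phosphomevalonate kinase, had its nearest SREBP2 region with vehicle 3244 bp upstream of the start, with 9 fragments. Its strongest, 9984 bp upstream, held 31 fragments with vehicle and 20 at the overlapping region with XY018. FDPS (chr1:155278539-155290457, plus strand), which encodes farnesyl diphosphate synthase, had 11 fragments at an intronic region 2956 bp downstream of the start with vehicle and no overlapping region with XY018. The strongest SREBP2 regions in its flank, of 57 fragments with vehicle, lay at promoter windows of RUSC1 beyond the end of FDPS.

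GC boxes stood within 100 bp of the vehicle SREBP2 summit at all 5 members with a promoter region, and at 69.9% of the 14188 genes with such a region. Any of the 4 motifs was found there at 73.9% of genes. A CCAAT box stood within 100 bp at HMGCS1 only (8.32% of genes). No SRE and no E-box stood within 100 bp at any of the 5, and those motifs were found at 0.67% and 4.76% of genes. Within 200 bp, CCAAT boxes were found at ACAT2, HMGCS1 and MVK (20.2% of genes). At MVD and IDI1, the members with the most SREBP2 fragments, the CCAAT boxes upstream of the start lay further than 200 bp from the summit. The boxes 157, 118 and 83 bp upstream of MVD nevertheless lay inside its vehicle region. So did those 213 and 115 bp upstream of IDI1, whose region began 273 bp upstream of the start.

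**Figure D2:**
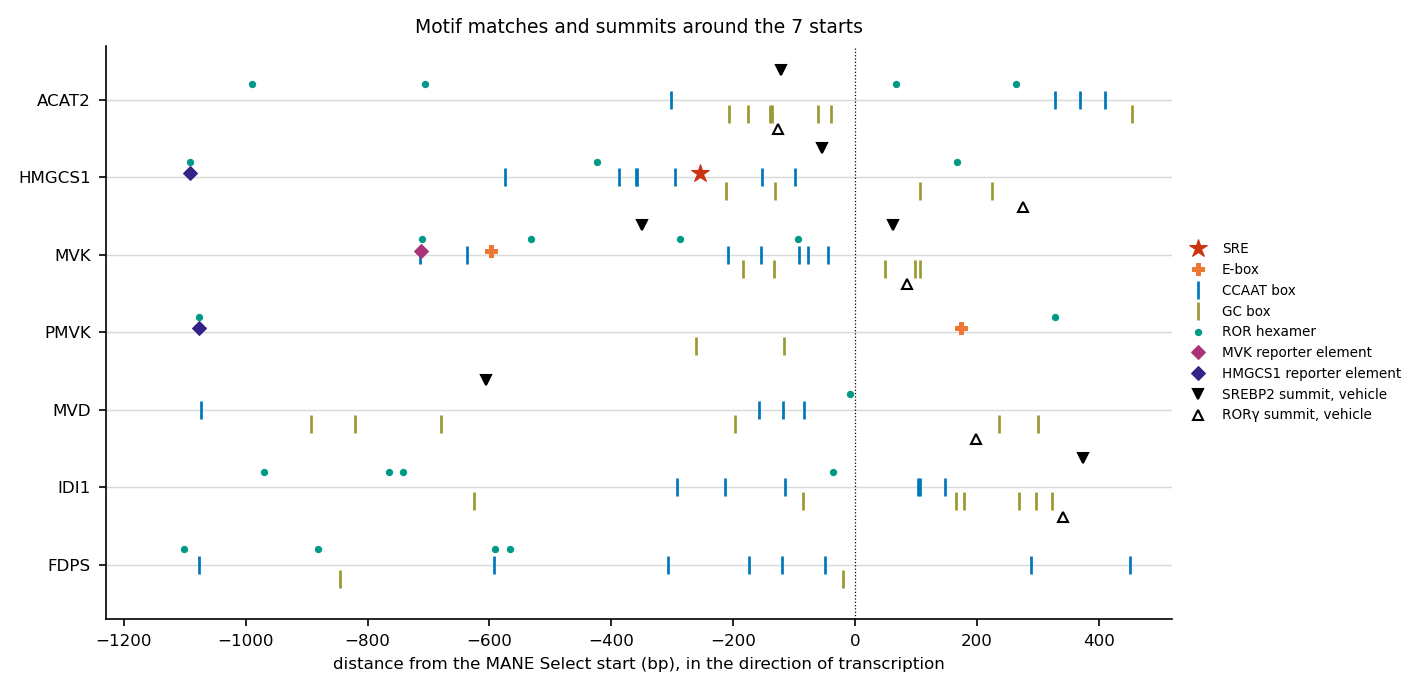
Motif matches on either strand and vehicle summits (symbols as in the key) by distance in bp from the MANE Select start (x axis) for the 7 genes (y axis). The SRE of HMGCS1 is the only match of its kind, the reporter elements lie outside the SREBP2 and RORγ regions, and the SREBP2 summits range from 606 bp upstream at MVD to 374 bp downstream at IDI1.

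RORγ promoter regions were found at the same 5 genes as SREBP2 with vehicle and at 3 of them, ACAT2, MVK and MVD, with XY018. Over all protein-coding genes, 62.6% had a region with vehicle and 61.5% with XY018. HMGCS1 and IDI1 had none with XY018, and of all genes with a vehicle RORγ promoter region 8.26% lacked one with XY018. The vehicle regions of these 2 genes were counted through other annotated starts. In the window of the MANE Select start, neither had a RORγ region in either treatment. PMVK and FDPS had no RORγ promoter region in either treatment. Both factors were therefore found together at 5 members with vehicle (60.2% of all genes) and at 3 with XY018 (57.5%). In the window of the MANE Select start, ACAT2, MVK and MVD had both factors in each treatment and no other member did in either.

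At ACAT2, RORγ held 9 fragments with vehicle and 5 with XY018, a ratio of 0.614 (interval 0.162 to 2.04). The region of MVK at its main start had the same numbers, 9 and 5, with the same ratio. By the rule that takes the pair of regions with the most fragments, MVK was represented by the internal start, where 6 fragments with vehicle stood against 9 with XY018, a ratio of 1.66 (interval 0.527 to 5.66). The 2 sites of MVK thus differed in direction, and each interval was wide and held 1.

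At MVD, RORγ held 46 fragments with vehicle, 198 bp downstream of the start, and 36 with XY018, 149 bp downstream. The ratio was 0.865 (interval 0.544 to 1.37). The local background that the peak caller used there was 1.63 fragments with vehicle and 3.95 with XY018, so the deposited fold of the same summit was 17.9 and 7.48, a ratio of 0.418. A second XY018 region, of 32 fragments 600 bp upstream, lay where SREBP2 had its own summit. The summed ratio over the 3 genes was 0.906 (interval 0.611 to 1.34), beside a median of 0.968 over 11311 promoters, and it was 0.795 with pairs taken at the MANE Select start only and 1.24 with the pair nearest to any start, so its direction depended on the regions paired. The median of the 3 ratios was 0.865. A ratio under 1 was found at 2 of the 3 genes and at 55.3% of promoters. It was at least 1.5 times lower at ACAT2 (9.56% of promoters) and at least 1.5 times higher at MVK (7.32%).

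HMGCS1 was listed with 4 RORγ fragments 276 bp downstream of its start with vehicle, at a −log10 q of 0.996, among the weakest promoter regions of that list. At IDI1 the vehicle RORγ summit held 19 fragments, 342 bp downstream of the start, over a local background of 3.80 fragments that was itself high, since the most common background in this list was 0.787. Neither gene had an overlapping RORγ region with XY018. In contrast, the RORγ summit at the WDR37 promoter window upstream of IDI1 held 10 fragments with vehicle and 19 with XY018, at summits 7400 and 7383 bp upstream of the IDI1 start.

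SREBP2 and RORγ summits of the vehicle libraries lay 4 bp apart at ACAT2, 23 bp at MVK and 32 bp at IDI1, beside a median of 58 bp over 11787 genes with overlapping regions. With XY018 the gap was 48 bp at ACAT2 and 60 bp at MVK, there at the internal start, beside a median of 54 bp over 11417 genes. At MVD they lay 804 bp apart, within wide regions that overlapped, and at HMGCS1 the regions did not overlap. The strongest overlapping regions of MVD with XY018 had summits 29 bp apart, and the upstream stretch was then listed as a RORγ region of its own.

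Hexamers of the type that ROR receptors bind (AGGTCA, with its variants GGGTCA and also TGGTCA, on either strand) were absent within 100 bp of the strongest vehicle RORγ summit at all 5 members, and were present at 17.9% of the 12591 genes with a promoter region. Within 200 bp they were present at 3 members, ACAT2, HMGCS1 and MVK, and at 35.4% of genes, the nearest being 108 bp from the HMGCS1 summit. The element mutated in the MVK reporter of the study, ATTGGTCAC, was found 712 bp upstream of the MVK start, and 0.599% of promoter windows had it. It contains both a CCAAT box and a TGGTCA hexamer. It lay 653 bp from the edge of the vehicle RORγ region at the main start of MVK and 255 bp from the upstream SREBP2 region. The element of the HMGCS1 reporter, TCTGACCA, which holds the complement of TGGTCA, was found 1092 bp upstream of the HMGCS1 start, outside the promoter window and 1332 bp from the vehicle RORγ region. The same letters also stood 1077 bp upstream of the PMVK start, and 3.07% of promoter windows held them. The study reports that mutating these putative ROR elements reduced activation of the reporters by RORγ. It also reports, from both ChIP-seq and ChIP-qPCR, RORγ at putative elements of cholesterol gene promoters. The peak lists used here come from the ChIP-seq and hold no ChIP-qPCR. Both sites are shown because no RORγ or SREBP2 region was listed over either in any of the 4 factor lists, with the element in capitals.
MVK element, chr12:110010873-110010902: tgctttggagATTGGTCACaatctgagtcg
HMGCS1 element, chr5:43314591-43314620: tggcttctctcTCTGACCAgatagaggcag

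H3K27ac promoter regions were found at all 7 genes in both treatments, where 66.8% of protein-coding genes had one with vehicle and 68% with XY018, and 3.25% of those with a vehicle region lacked one with XY018. The mark was highest at MVD and IDI1 in both treatments, the genes that also had the most SREBP2 fragments in both and the most RORγ fragments with vehicle. PMVK and FDPS, without either factor at the promoter, had levels near that of MVK with vehicle, 47 and 52 fragments beside 45. With XY018 they held 32 and 54 fragments beside 61. With XY018 the scaled fragments were higher at 5 members and lower at 2, HMGCS1 and PMVK, and 19.6% of 12881 promoters were lower. The summed ratio was 1.18 (interval 1.05 to 1.31). The median of the 7 ratios was 1.17, beside a median of 1.27 over those promoters. None of the 7 ratios was 1.5 times higher or lower, where 22.6% of promoters were at least 1.5 times higher and 3.08% at least 1.5 times lower.

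MVD held 212 fragments with vehicle and 237 with XY018, with a ratio of 1.22 (interval 1.01 to 1.48), the only H3K27ac interval among the members that excluded 1. From the deposited fold the ratio was 1.76, with a local background of 4.40 fragments with vehicle and 2.42 with XY018. Its level exceeded that of 97.2% of genes with an H3K27ac promoter region with vehicle. IDI1 held 173 and 185 fragments (ratio 1.17, interval 0.947 to 1.45) and ACAT2 held 77 and 89 (1.27, interval 0.923 to 1.74). At MVK the numbers were 45 and 61, and the ratio of 1.49 had an interval of 0.994 to 2.23. FDPS held 52 and 54 fragments at the region over its first exons, a ratio of 1.14 (interval 0.763 to 1.70), and the deposited fold gave 0.921.

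At HMGCS1 the mark held 22 fragments with vehicle and 16 with XY018, the lowest level of the 7 genes in both libraries. The ratio of 0.797 had an interval of 0.391 to 1.59. PMVK held 47 fragments with vehicle, 87 bp upstream of its start, and at most 32 anywhere in the overlapping region with XY018, whose summit lay 1620 bp upstream. The XY018 region of 3908 bp spanned 2 vehicle regions, of 47 and 28 fragments, so the ratio of 0.746 (interval 0.461 to 1.19) compares summits 1533 bp apart.

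**Figure D3:**
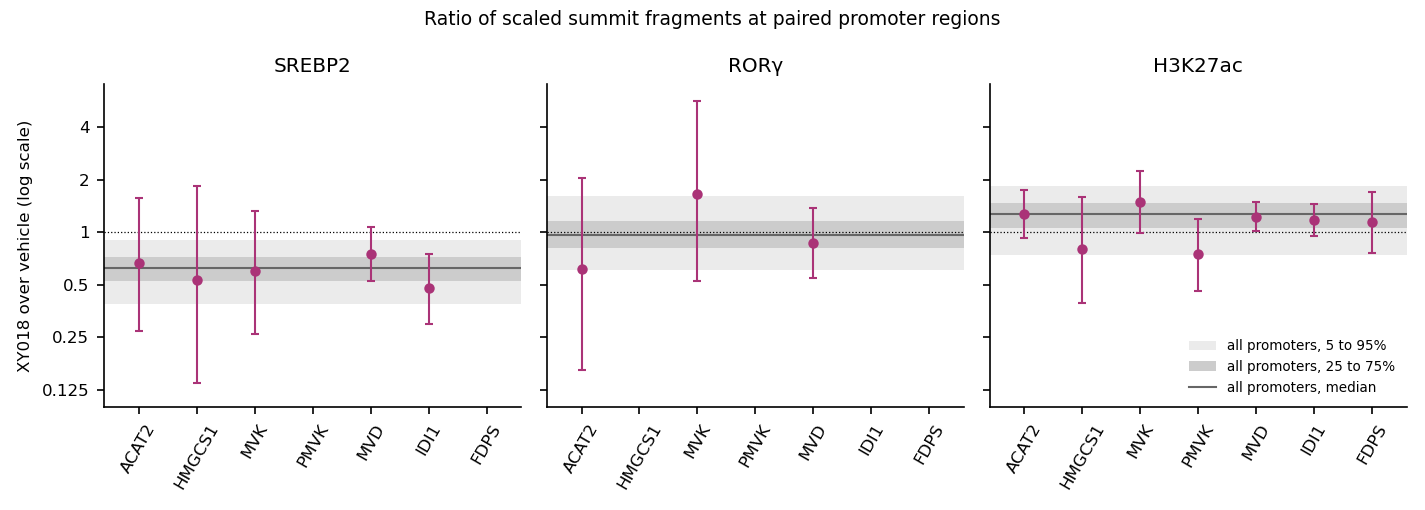
Ratio of scaled summit fragments, XY018 over vehicle (y axis, log scale), at the pair of overlapping promoter regions with the most fragments for each gene (x axis), with exact 95% intervals. The grey bands and line give the spread and median over all promoters, and the dotted line marks 1. The SREBP2 ratios lie between 0.477 and 0.748 around a median over all promoters of 0.621, and RORγ at MVK is the internal start.

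The promoter regions of the vehicle lists were followed into the XY018 lists. Of the 13 SREBP2 regions at the 7 genes, counted at every annotated start, 10 overlapped an XY018 region, 76.9% (interval 46.2 to 94.96), beside 74% over all promoter regions. For RORγ 7 of 11 were kept, 63.6% (interval 30.8 to 89.1), beside 78.6%. For H3K27ac 13 of 18 were kept, 72.2% (interval 46.5 to 90.3), beside 86.9%. The background shares lay inside all 3 intervals, but these intervals treat regions as independent draws. MVD alone supplied 7 of the 13 SREBP2 and 6 of the 11 RORγ regions, so the intervals cannot show whether the members differ from the background.

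Regions clustered unevenly over the 7 loci. MVD accounted for 19 of the 44 SREBP2 regions with vehicle and 16 of the 32 with XY018, and for 17 of 39 and 16 of 34 RORγ regions. It has 16 distinct annotated starts, whereas FDPS and MVK, with 20 and 17, had 9 and 7 SREBP2 regions with vehicle. The strongest SREBP2 and RORγ regions of its flank with vehicle lay 19595 and 19564 bp downstream of the start, beyond the end of the gene. They held 84 SREBP2 and 85 RORγ fragments with vehicle, and the overlapping regions held 74 and 72 with XY018. A cluster at the promoter of CYBA, which encodes a subunit of the NADPH oxidase, held 76 and 64 SREBP2 fragments (vehicle, then XY018) and 82 and 86 RORγ fragments. Within MVD itself, a region 7707 bp downstream of the start held 48 and 45 SREBP2 fragments.

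HMGCS1 was the sparsest locus, with 1 SREBP2 region in each treatment and 2 RORγ regions with vehicle. Both of those RORγ regions were absent from the XY018 list, as were 6 of the 6 listed within 10 kb of PMVK with vehicle, where 63.6% of all RORγ regions with vehicle overlapped none with XY018 and the list went from 167264 to 129954 regions. At PMVK the region 9957 bp upstream, of 9 RORγ fragments, was listed with XY018 only. At ACAT2 the shared promoter of TCP1, a chaperonin subunit, and MRPL18 held 24 and 17 SREBP2 fragments (vehicle, then XY018) and 16 and 7 RORγ fragments. The WDR37 promoter window upstream of IDI1 held 34 and 18 SREBP2 fragments. At RUSC1, beside FDPS, the region 12057 bp downstream of the FDPS start held 57 and 44 SREBP2 fragments and 55 and 52 RORγ fragments.

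Over the 7 loci, 18 of the 44 SREBP2 regions with vehicle overlapped none with XY018 (60.2% of the whole list did so), and 3 of the 32 with XY018 overlapped none with vehicle (29.8%). The corresponding numbers were 20 of 39 and 11 of 34 for RORγ (63.6% and 52.3%) and 17 of 59 and 10 of 54 for H3K27ac (30.7% and 37.3%). The whole SREBP2 list shortened from 117441 to 69700 regions, whereas estimated SREBP2 depth was 1.07 times that of vehicle. The part of this difference between whole libraries in the members' values was not tested.

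**Figure D4:**
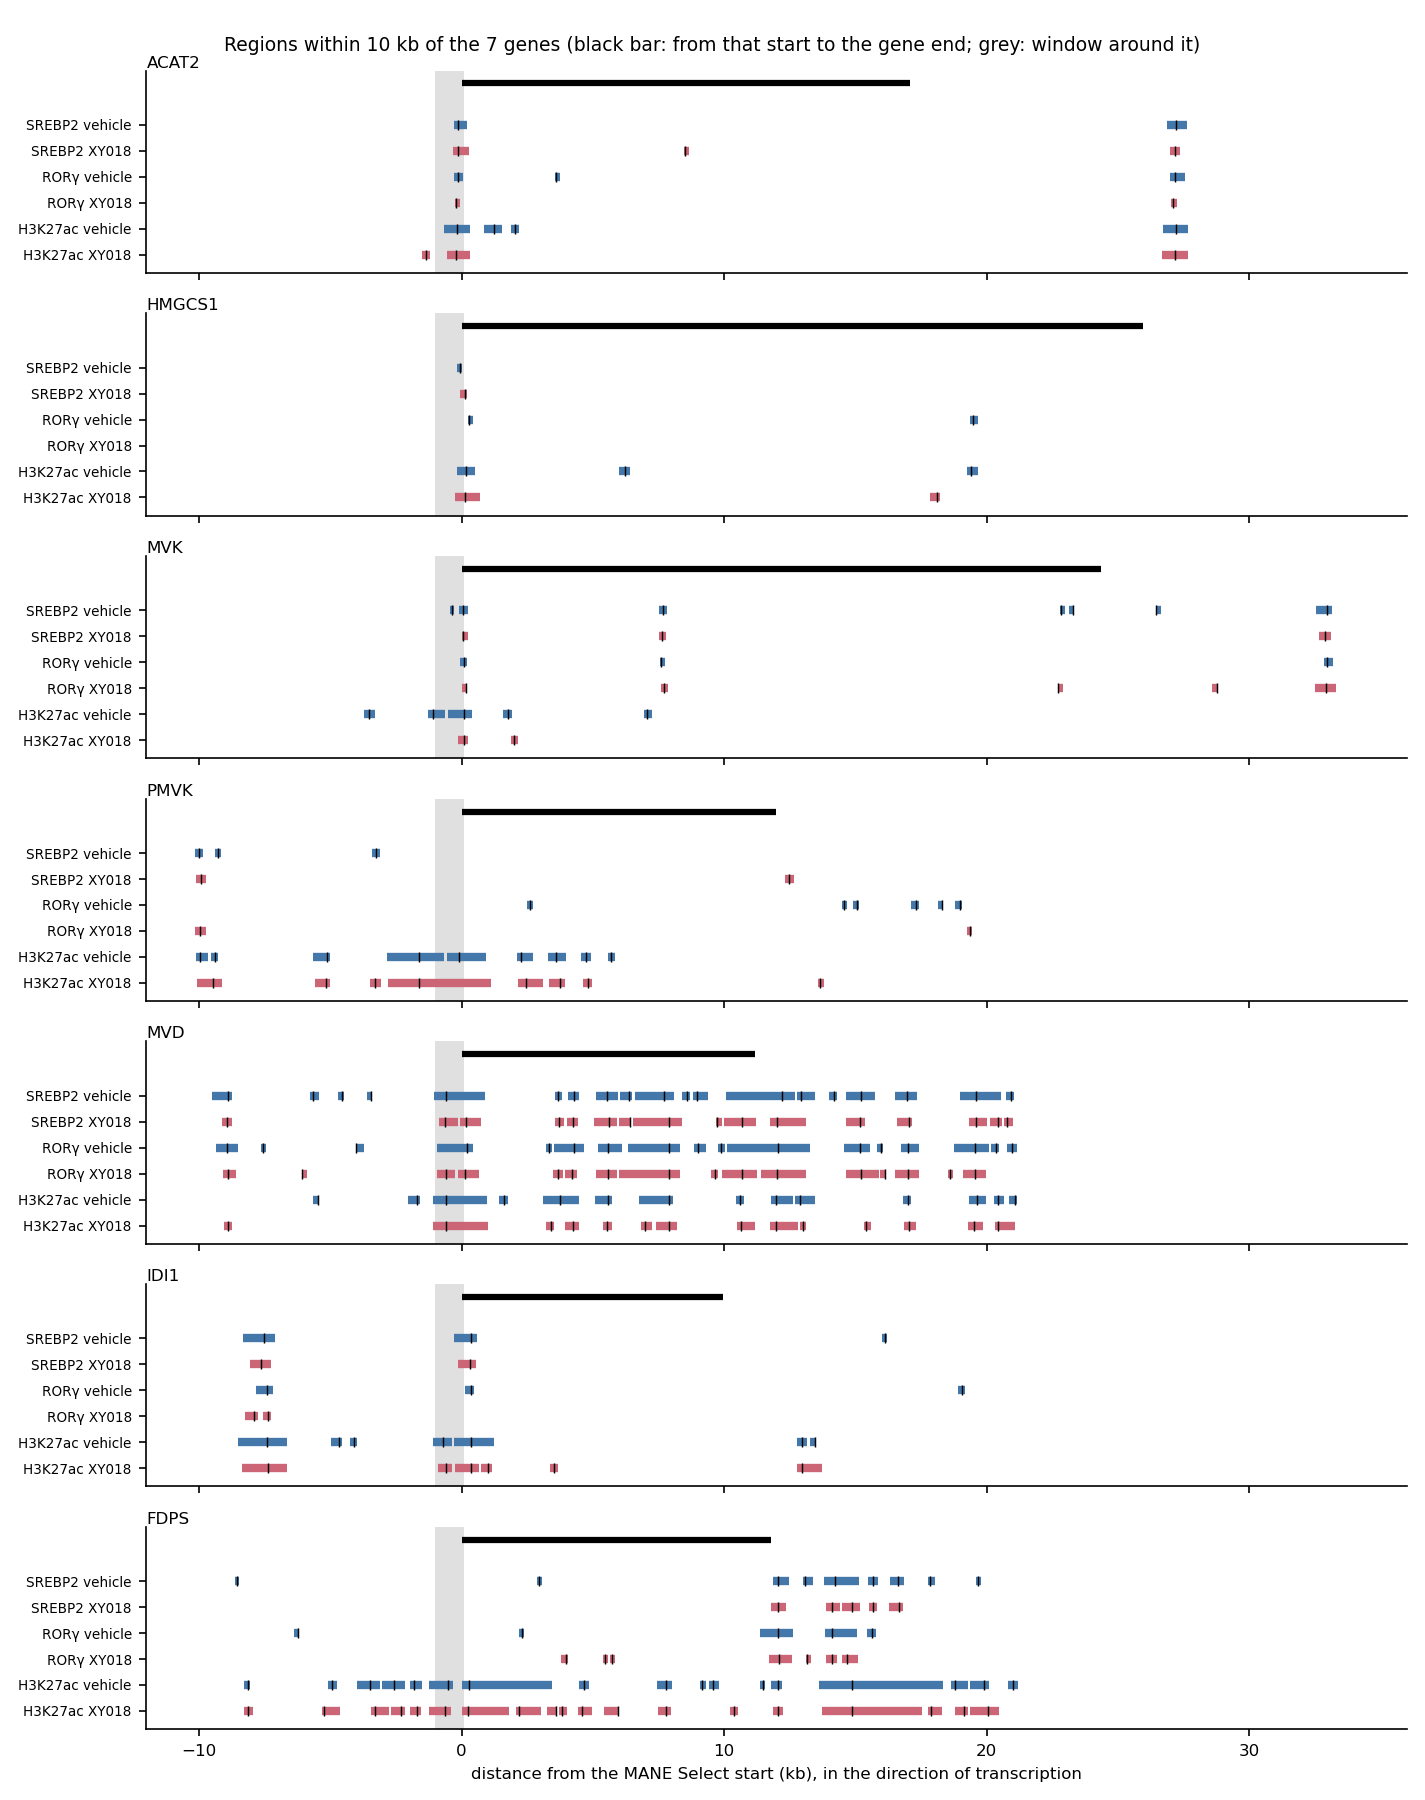
Regions of the 6 lists (coloured bars, vehicle in blue and XY018 in red, summits as ticks) within 10 kb of each gene by distance in kb from the MANE Select start (x axis), with the lists on the y axis. The black bar runs from the start to the end of the gene, and the grey band is the window around that start. MVD carries the most factor regions and HMGCS1 the fewest, and PMVK and FDPS have H3K27ac but no SREBP2 or RORγ region in the grey band.

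The 12 genes of the later steps from farnesyl diphosphate to cholesterol gave a like picture for SREBP2. A promoter region was found at 11 of them with vehicle (70.6% of all genes) and at 10 with XY018 (62.7%). All 10 pairs had a ratio under 1, as did 98% of promoters and all 5 mevalonate members with a pair. Their median ratio was 0.491, and that of the mevalonate members was 0.597. A ratio at least 1.5 times lower was found at 8 of the 10 pairs and at 4 of the 5 mevalonate pairs, beside 62.3% of promoters. These counts depended on the scaling, as the SREBP2 background also reflects fragment length, 185 bp with vehicle and 205 bp with XY018. Scaled by tags per kb, ACAT2 moved from 0.665 to 0.737, short of that fold. The medians were then 0.545 for the later steps, 0.662 for the mevalonate members and 0.688 for all promoters. The lowest ratio of the later steps was that of MSMO1, 0.385 with 11 and 5 fragments, the highest that of EBP, 0.987 with 18 and 21 fragments, and LSS lay just above the median at 0.499 with 39 and 23 fragments at summits 856 bp apart. From the deposited fold these ratios were 0.683 at MSMO1, 1.29 at EBP and 0.914 at LSS. For RORγ, 9 of the 12 had a region with vehicle (62.6% of all genes) and 8 with XY018 (61.5%). Their median RORγ ratio was 1.07, beside 0.968 over all promoters.

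Of 8 enzymes that use farnesyl diphosphate for other products, 7 had SREBP2 at the promoter with vehicle and 4 with XY018, where 70.6% and 62.7% of all genes had it and 12.5% of genes with a vehicle region lacked one with XY018. The 4 pairs had a median ratio of 0.752 and ranged from 0.486 to 1.27, the last at NUS1 with 6 and 9 fragments. RORγ was found at 5 of the 8 in each treatment (62.6% and 61.5% of all genes), and H3K27ac at 8 and 7 (66.8% and 68%). At single promoters outside lipid metabolism, the SREBP2 ratio was 0.958 at GAPDH (38 and 43 fragments, interval 0.605 to 1.52) and 0.817 at ACTB (58 and 56 fragments, interval 0.556 to 1.20). Both lay above the median of all promoters, 0.621, and so do not stand for promoters in general.

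ACAT2, MVK and MVD, 3 of the 7 members, had a promoter region in all 6 libraries, as had 9311 of the 20098 protein-coding genes. For MVD, the member with the most SREBP2 fragments, the promoters closest in pattern over the 6 libraries were those of MYO10, DBNL and AXIN1, at distances of 0.21, 0.217 and 0.38 (Euclidean, on log2 summit fragments over the background of each library). MVD held 67.1 and 50.2 times the background in the SREBP2 libraries with vehicle and XY018, and MYO10 held 67.1 and 47.8 times. Each value was that of the strongest region at any annotated start, so the pattern can mix sites of a gene. For RORγ at MVD with XY018 it was a region 7908 bp downstream, at 61.8 times the background. The RORγ region at the main start held 50.6 times with XY018.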

How the data were processed

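ChIP-seq peak lists of 6 immunoprecipitated HCC70 libraries were used, 1 per antibody and treatment. The 6 input libraries were not used here, and groups came from the labelled antibody and treatment. According to the study's methods, alignment to hg19 used BWA, and only unique tags without duplicates were kept. The submitters' processing notes name Bowtie2 in place of BWA, and MACS2 2.1.0 as the peak caller. XY018 is labelled 5 µM, whereas the study's methods state less.

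The authors deposited for each peak a fold enrichment, a ratio of summit pileup plus 1 over local background plus 1. The −log10 p and −log10 q of the summit were also deposited, and the score the authors deposited repeats the −log10 p and was not used. The lists include regions with a −log10 p of 2.00 and more, some with a high q. Gaps in the peak numbers show that the H3K27ac lists are a subset of the peaks called.

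From fold and −log10 p, the whole number of fragments at each summit and its local background were recovered under the Poisson model of MACS2, with a tolerance of 5% of the step between neighbouring whole numbers. This gave whole numbers for at least 99.999% of regions, and was tested on simulated data. XY018 fragments were divided by vehicle fragments and scaled by the most common background of each list (1.18 for SREBP2, 0.904 for RORγ and 0.913 for H3K27ac, XY018 over vehicle). Exact binomial and Poisson 95% intervals were taken in scipy 1.17.1. Genes and starts came from GENCODE 44 lifted to GRCh37, and sequence from the GRCh37 genome with samtools 1.23.1. PECAM1, in the list of markers of other cells, was not in the annotation used.

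At each promoter the pair of overlapping regions with the most fragments was compared. Alternatives were the q threshold, promoter window, overlap rule, list length, scaling, transcript starts, flank and motif window. The named genes were the 7 members, the lowest, median and highest SREBP2 ratio of the later steps, GAPDH, ACTB, the 3 promoters closest to MVD in pattern, and genes whose promoter lay in a flank. The members and all lists were chosen with earlier results of these data known.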

Additional observations from a re-analysis of the deposited data

How the results depend on the processing

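No paired analysis was possible because each group had 1 library and the labels give no replicate numbers. Of 105 values recomputed under another setting for the counts, kept shares and summed ratios, 88 stayed within 1.5 times or inside the interval, and none changed direction past its interval. At a q of at most 1e-05, SREBP2 promoter regions with XY018 were found at 3 members, both factors with XY018 at 1 member, and 45.5% of the SREBP2 promoter regions were kept. The shares over all genes and regions given above are for the main setting and are no background for these values. At that q the flanked genes held 24 and 21 SREBP2 regions and 19 and 18 RORγ regions (vehicle, then XY018). With a flank of 50 kb they held 123 and 83 SREBP2, 121 and 96 RORγ, and 152 and 133 H3K27ac regions, and with 5 kb 25 RORγ regions with vehicle. With starts of protein-coding transcripts only, 90.9% of H3K27ac promoter regions were kept. From the deposited fold, the summed RORγ ratio was 0.609, and MVD alone gave 0.418, where the local background of its XY018 summit was high. Within 50 bp of the vehicle SREBP2 summit, 3 of 5 members had any of the 4 motifs, beside 53.6% of the 14188 genes with such a region. For the other changes the cause was not tested. Without MVD, an alternative chosen after seeing the data, the summed SREBP2 ratio was 0.531, that of RORγ 1.03 and that of H3K27ac 1.15. At 4 to 19 fragments, as at HMGCS1, ACAT2 and MVK, the depth cannot show a difference of the size seen over all promoters.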
